A study of Mus musculus with 108 samples.

Results

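A group of 9 myelin genes was followed in the mouse hippocampus from birth to postnatal day 28 and then looked for in single neurons. They were chosen by symbol, and all 9 symbols were found among the 23337 genes of the count table. Mbp, Mobp, Mag, Mog, Mal, Cnp and Opalin encode proteins of the myelin membrane, and Fa2h and Ugt8a encode enzymes that make its lipids. The study sequenced 15 libraries of whole hippocampal tissue lysate, 3 independent replicates at each of postnatal days 0, 7, 14, 21 and 28 (P0 to P28), and 93 single neurons recorded electrically at postnatal weeks 3 to 4. From CA1 there were 25 pyramidal cells, 19 cholecystokinin interneurons (CCK cells) and 14 parvalbumin interneurons (PV cells). The subiculum gave 21 pyramidal cells that fired in bursts (burst cells) and 14 that fired regularly (regular cells). The labels give no strain, genotype, sex or treatment for any group, and no animal behind a cell. CA1 cells were made with version 3 of a SMARTer cDNA kit and subiculum cells and tissue with version 4, so region and kit cannot be told apart among the cells.

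Myelin is the membrane that oligodendrocytes wrap around axons. Its layers are held together on the cytoplasmic side by basic proteins, it meets the axon and the outside through adhesion proteins, and it is rich in galactosylceramide, a sphingolipid built by a short chain of enzymes. In rodents the hippocampus acquires most of its myelin after birth, when precursor cells differentiate into oligodendrocytes. Mbp transcripts are known to be carried along oligodendrocyte processes and translated at the myelin sheath. The Mbp locus also makes golli transcripts, which neurons can express, and counts per gene do not separate them from classic Mbp transcripts.

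Promoter sequence from RefSeq (GRCm38.p6) was available for 7 of the 9 genes, and 4 of these are shown because they hold letters recognised by transcription factors of the oligodendrocyte lineage. Each line runs 5′ to 3′ on the gene's own strand over the 250 bases before the transcription start. Capitals mark ACAAAG, the core recognised by SOX proteins such as Sox10, and CTGGCAC, the core recognised by Myrf, on either strand (CTTTGT and GTGCCAG on the other).
Mobp, chr9:120149492-120149741, plus strand: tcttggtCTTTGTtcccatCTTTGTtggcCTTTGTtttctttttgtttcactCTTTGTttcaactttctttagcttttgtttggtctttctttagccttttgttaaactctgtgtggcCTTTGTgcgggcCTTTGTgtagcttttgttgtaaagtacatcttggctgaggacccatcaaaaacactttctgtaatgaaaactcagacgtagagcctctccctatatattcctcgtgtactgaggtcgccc
Mag, chr7:30914923-30915172, minus strand: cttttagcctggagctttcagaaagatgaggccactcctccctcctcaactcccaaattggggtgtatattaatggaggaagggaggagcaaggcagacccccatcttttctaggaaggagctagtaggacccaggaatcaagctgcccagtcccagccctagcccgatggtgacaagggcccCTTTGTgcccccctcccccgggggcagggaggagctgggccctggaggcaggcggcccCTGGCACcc
Cnp, chr11:100574689-100574938, plus strand: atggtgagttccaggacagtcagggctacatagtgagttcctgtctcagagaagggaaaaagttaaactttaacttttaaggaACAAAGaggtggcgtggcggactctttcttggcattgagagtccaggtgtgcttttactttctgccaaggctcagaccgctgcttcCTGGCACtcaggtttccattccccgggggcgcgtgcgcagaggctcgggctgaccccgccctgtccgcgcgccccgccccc
Opalin, chr19:41077114-41077363, minus strand: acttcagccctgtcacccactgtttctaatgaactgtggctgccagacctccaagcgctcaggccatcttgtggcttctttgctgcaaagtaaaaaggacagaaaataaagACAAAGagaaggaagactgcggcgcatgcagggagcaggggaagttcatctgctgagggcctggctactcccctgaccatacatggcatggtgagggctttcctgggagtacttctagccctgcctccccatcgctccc
The Mobp stretch held 6 copies of the SOX letters, all on the other strand, and no copy of the Myrf letters. Mag and Cnp each held 1 of both kinds. Opalin held 1 SOX match in the printed stretch and, in the 50 bases after the start, a second SOX match and 1 Myrf match. In windows of 300 bases (250 before and 50 after the start), the SOX letters were present in 4 of the 7 genes and in 18.7% of 27025 mouse promoters, and the Myrf letters in 3 of the 7 and in 5.03%. Mog, Mal and Ugt8a had no match to either. These are matches of letters and not measured binding sites, and a window without them says nothing about the factor. Ugt8a differed from the others in base composition, with 78.3% G and C and 40 CG steps in its window, against 43.3% to 63.0% and 3 to 17 in the other 6 genes.

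Tissue levels by age are CPM, counts per 1000000 gene reads, after TMM scaling, which corrects for differences in library composition. Where tissue is set beside single cells, both are CPM without TMM scaling. In the text, 3 values in a row are replicates 1, 2 and 3. Folds and adjusted p come from edgeR's quasi-likelihood test with Benjamini-Hochberg adjustment over 14737 genes, fitted to all 15 libraries, with a call at an adjusted p under 0.05. The labels call the replicates independent without naming animals, so p-values measure the spread between these libraries. Tissue libraries held 2341677 to 13262818 gene reads. In tissue, fewer cells of a type and less RNA per cell cannot be told apart.

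The pattern common to the 9 genes was a low level at P0 and P7 and a steep rise by P14, after which they differed from each other. Between P7 and P14 all 9 rose, with a median log2 change of 6.25 (Opalin, which had no read at P7, counted at its lower bound or at its fitted value). In the same comparison 42.2% of all tested genes were called, 21.7% upward, 48.8% did not overlap between the ages, and the median of all tested genes was 0.00. From P0 to P28 all 9 rose again, by a median of 8.01 on the log2 scale, where 64.2% of genes were called (32.9% upward and 31.3% downward) and 68.6% did not overlap between the ages.

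**Figure D1:**
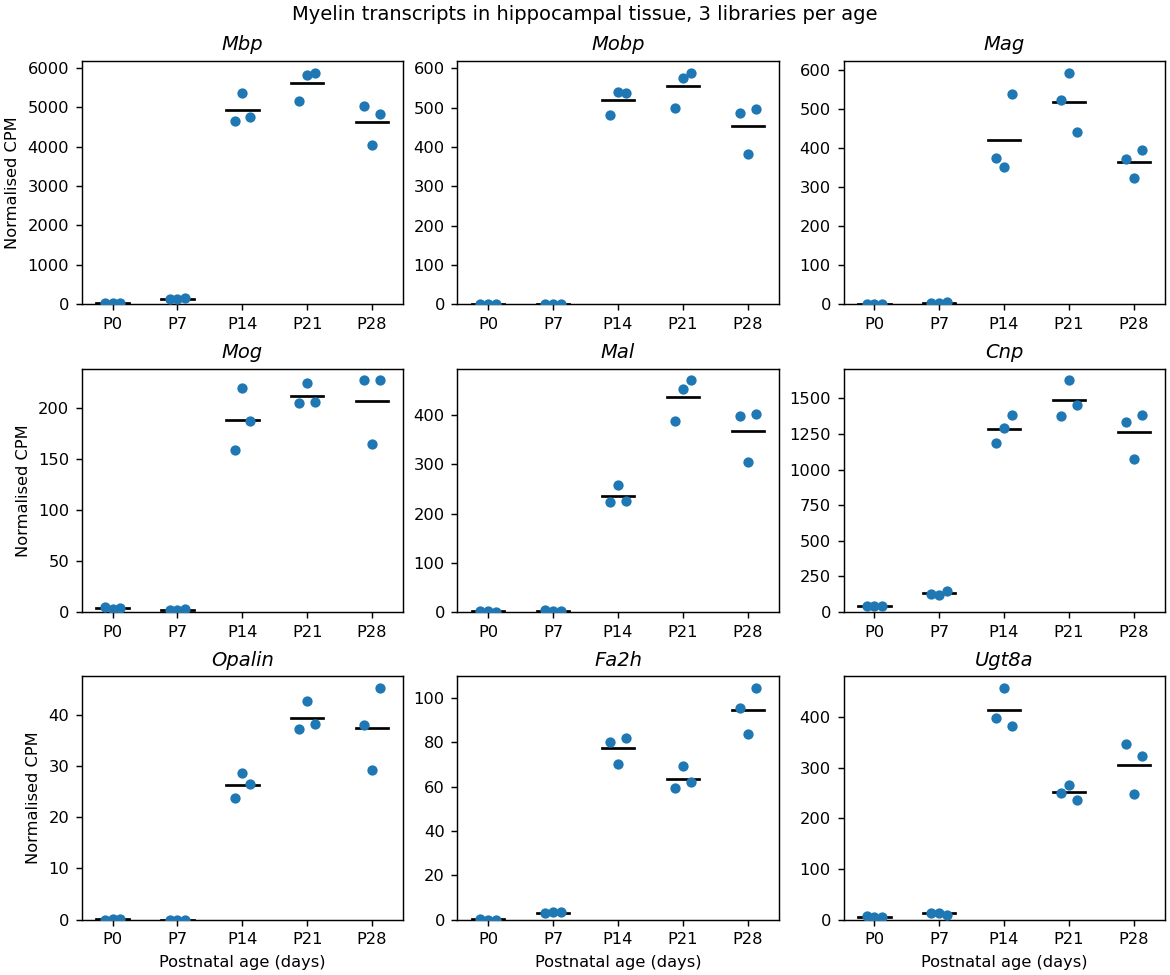
Normalised CPM (linear axis from 0) of each of the 9 genes in every tissue library by postnatal age, with dots for the 3 replicates of an age and a black line for their mean. All libraries of P14, P21 and P28 lie above all libraries of P0 and P7, and Ugt8a and Fa2h have their highest means at P14 and P28 while the other 7 have theirs at P21.

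Among the proteins that hold myelin layers together, Mbp was the most abundant of the 9 genes at every age from P14. Mbp, myelin basic protein (chromosome 18, 82475146 to 82585637, plus strand), stood at 38.3, 47.9 and 34.2 CPM at P0 and at 125.2, 126.9 and 157 CPM at P7. It then reached 4648, 5355 and 4750 CPM at P14, 5148, 5810 and 5872 CPM at P21, and 5034, 4041 and 4821 CPM at P28. Each age up to P14 lay wholly above the one before, and P14 overlapped both later ages. Mbp rose by 1.76 ± 0.13 (SE) on the log2 scale from P0 to P7 (edgeR adjusted p = 5.44e-09) and by 5.17 ± 0.14 from P7 to P14 (edgeR adjusted p = 7.52e-16).

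Mobp, another small basic protein of the compact layers (chromosome 9, 120149707 to 120181484, plus strand), was close to absent before P14. It had 0, 0 and 1 reads in the P0 libraries and 1, 1 and 4 reads in the P7 libraries. At P14 it stood at 480, 541 and 536 CPM, at P21 at 498, 575 and 589 CPM, and at P28 at 485, 381 and 496 CPM. Its P7 mean was 0.0504% of its P21 mean, and pooled over 3 libraries, P14 exceeded P7 by 1556-fold (95% interval 715 to 4241, counting error only), from 6 reads to 14869. Its P7 to P0 ratio of 7.59 rested on 6 reads against 1 (interval 0.921 to 349) and was not called (edgeR adjusted p = 0.0501), although it passed with RLE scaling (adjusted p = 0.0496) and without P0 replicate 3 (adjusted p = 0.0448).

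Cnp, a phosphodiesterase that lines the cytoplasmic channels of myelin (chromosome 11, 100574904 to 100591729, plus strand), had, with Mbp, the highest levels at P0. It stood at 39.5, 42.7 and 40.9 CPM at P0, 126.2, 120.6 and 149 CPM at P7, and 1187, 1289 and 1382 CPM at P14. P21 gave 1379, 1629 and 1457 CPM and P28 gave 1332, 1072 and 1380 CPM, which overlapped each other and P14. Its rise from P7 to P14 was 3.28 ± 0.11 on the log2 scale (edgeR adjusted p = 3.12e-14), the smallest of the 9, and its P7 mean was already 8.86% of its P21 mean, against 2.43% for Mbp. Dnajc7 overlaps Cnp on the other strand, and whether the libraries kept the strand is not given in the sources used here, so a part of the Cnp reads cannot be assigned.

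At P0 and P7, Mbp and Cnp shared most of the reads of the 9 genes in near equal parts. Mbp took 39.8% to 46.4% and Cnp 41.3% to 47.6% in the P0 libraries, and 45.1% to 47.5% and 44.3% to 45.5% in the P7 libraries. From P14 the balance was different and steady, with Mbp at 58.6% to 62.7% and Cnp at 15.04% to 17.04% in all 9 libraries of P14, P21 and P28.

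The surface and adhesion proteins Mag and Mog were low before P14, and Opalin was at or under the limit of 3 reads. Mag, a lectin of the myelin layer next to the axon (chromosome 7, 30899176 to 30914873, minus strand), stood at 1.61, 1.58 and 0.897 CPM at P0 and at 3.85, 3.05 and 5.10 CPM at P7. It stood at 373, 352 and 537 CPM at P14, 523, 593 and 441 CPM at P21, and 372, 324 and 395 CPM at P28. P14 replicate 3 was far above its 2 fellows, so that P14 overlapped both later ages, while P28 lay wholly below P21. Mag rose by 1.75 ± 0.39 on the log2 scale from P0 to P7 (edgeR adjusted p = 0.00185, and 0.0593 with libraries thinned to the smallest) and by 6.63 ± 0.22 from P7 to P14 (edgeR adjusted p = 5.72e-14).

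Mog, an immunoglobulin-family protein of the outermost myelin surface (chromosome 17, 37010743 to 37023398, minus strand), was the only member with lower values at P7 than at P0 in every library. It stood at 5.24, 3.07 and 3.75 CPM at P0 and 1.80, 2.03 and 2.93 CPM at P7, from 92 and 48 reads in all. The groups did not overlap, but the difference of −0.57 ± 0.31 on the log2 scale did not pass (edgeR adjusted p = 0.159, and 0.0750 to 0.297 over the alternatives). Mog then stood at 158, 220 and 187 CPM at P14, 204.7, 223.7 and 205.3 CPM at P21, and 226.6, 165 and 226.7 CPM at P28, a rise from P7 to P14 of 6.25 ± 0.21 on the log2 scale (edgeR adjusted p = 2.52e-14).

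Opalin, a transmembrane glycoprotein of oligodendrocytes (chromosome 19, 41061710 to 41077113, minus strand), was the least abundant of the 9 at every age from P14. It had 0, 2 and 1 reads in the P0 libraries and no read in any P7 library. P14 libraries held 23.8, 28.6 and 26.4 CPM, P21 libraries 37.2, 42.7 and 38.1 CPM, and P28 libraries 38.0, 29.2 and 45.2 CPM. Counted against a limit of 3 reads over the P7 libraries, it was at least 156-fold higher at P14 than at P7 (edgeR adjusted p = 2.18e-11), and no fold is given between P0 and P7.

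Mal, a proteolipid of lipid-rich membranes and their transport vesicles (chromosome 2, 127633226 to 127656695, minus strand), had the lowest P14 level of the 9 relative to its own highest mean. It stood at 1.61, 1.86 and 0.978 CPM at P0, at 3.85, 2.64 and 2.27 CPM at P7 and at 223.6, 259 and 225.7 CPM at P14. It then stood at 388, 453 and 471 CPM at P21 and at 399, 305 and 402 CPM at P28. Both later ages lay wholly above P14, whose mean was 54.0% of the P21 mean. The P7 to P14 rise was 6.43 ± 0.19 on the log2 scale (edgeR adjusted p = 3.59e-15).

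Between P0 and P7, Mal rose by 0.93 ± 0.34 on the log2 scale (edgeR adjusted p = 0.0382), the weakest of the 6 early calls. It did not pass without P0 replicate 1 (adjusted p = 0.0508), P0 replicate 3 (0.57 on the log2 scale, adjusted p = 0.253), P7 replicate 1 (adjusted p = 0.125) or P7 replicate 2 (adjusted p = 0.0649). Nor did it pass with the replicate number as a block (adjusted p = 0.0509), with the 6 libraries of the comparison alone (adjusted p = 0.0754) or with thinned libraries (adjusted p = 0.248).

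Both lipid enzymes had already risen at P7. Fa2h hydroxylates the fatty acids of myelin galactolipids (chromosome 8, 111345135 to 111393824, minus strand). It had 1 read in each P0 library and 12, 16 and 36 reads in the P7 libraries, a pooled ratio of 27.0 (interval 8.83 to 134.3, counting error only; edgeR adjusted p = 8.74e-08). It stood at 80.2, 70.4 and 82.05 CPM at P14, 59.3, 69.4 and 62.1 CPM at P21, and 95.5, 83.8 and 104.4 CPM at P28. P28 lay wholly above both earlier ages and P21 wholly below P14, and from P7 to P14 Fa2h rose by 4.56 ± 0.15 on the log2 scale (edgeR adjusted p = 3.11e-14).

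Ugt8a transfers galactose to ceramide and so makes galactosylceramide (chromosome 3, 125865271 to 125938619, minus strand). It stood at 6.45, 5.95 and 4.97 CPM at P0, 13.3, 13.8 and 10.2 CPM at P7, and 398, 458 and 383 CPM at P14. P21 libraries held 250.8, 266 and 236.4 CPM and P28 libraries 347, 248 and 323 CPM. Every P21 and P28 library lay below every P14 library, so that Ugt8a was the only one of the 9 genes with its highest mean at P14. It rose by 1.11 ± 0.20 on the log2 scale from P0 to P7 (edgeR adjusted p = 0.000190) and by 5.09 ± 0.15 from P7 to P14 (edgeR adjusted p = 3.59e-15).

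In all, 6 of the 9 genes were called between P0 and P7, all upward: Mbp, Mag, Mal, Cnp, Fa2h and Ugt8a. In that comparison 38.8% of tested genes were called and 21% rose. The P7 libraries lay wholly above P0 for the same 6 and for Mobp, and below for Mog. Among all tested genes 49.7% did not overlap between these ages, with P7 above in 26.2%. Leaving out each library in turn gave 5 or 6.

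**Figure D2:**
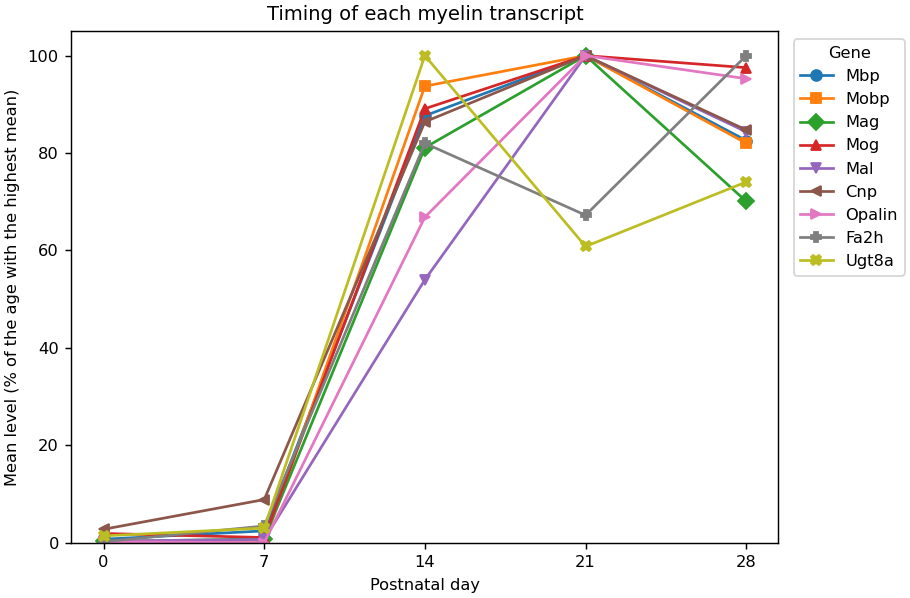
Mean level of each gene at each postnatal day as a percentage of its mean at the age where it was highest (n = 3 libraries per point). At P7 every gene is at or below the 8.86% of Cnp, at P14 Ugt8a is at 100% and Mal at 54.0%, and at P21 Ugt8a and Fa2h dip to 60.8% and 67.2% while the other 7 genes are at 100%.

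After P14 the 9 genes no longer moved together. Tested for any difference among P14, P21 and P28, 5 of the 9 were called, namely Mag, Mal, Opalin, Fa2h and Ugt8a, where 18.9% of all genes were. The count was 3 without P14 replicate 1, without P21 replicate 2 and with thinned libraries. Mbp, Mobp, Mog and Cnp did not pass (edgeR adjusted p = 0.174, 0.109, 0.534 and 0.155), which does not show that they were constant.

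From P14 to P21, 3 of the 9 genes were called, where 20.5% of all genes were, 9.93% upward and 10.6% downward. Mal rose by 0.89 ± 0.12 on the log2 scale (edgeR adjusted p = 4.48e-05) and Opalin by 0.59 ± 0.15 (edgeR adjusted p = 0.0124). Ugt8a fell by 0.71 ± 0.11 on the log2 scale (edgeR adjusted p = 0.000250), and the other lipid enzyme, Fa2h, differed by −0.29 ± 0.11 without passing (edgeR adjusted p = 0.0561). The Opalin call did not pass without P14 replicate 1 (adjusted p = 0.0612) or P21 replicate 2 (adjusted p = 0.0604). Fa2h passed without P0 replicate 1 (adjusted p = 0.0433) and without P14 replicate 2 (adjusted p = 0.0356), and Mag, at 0.30 ± 0.14 in the full fit, passed at 0.52 without P14 replicate 3 (adjusted p = 0.00842).

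From P21 to P28, 2 of the 9 were called, where 7.83% of all genes were, 4.49% upward and 3.34% downward. Fa2h rose by 0.57 ± 0.10 on the log2 scale (edgeR adjusted p = 0.00240), and did not pass only with thinned libraries (adjusted p = 0.153). Mag fell by 0.51 ± 0.14 on the log2 scale (edgeR adjusted p = 0.0355). That call was lost without P21 replicate 1 (adjusted p = 0.0946) or 2 (0.163), without P28 replicate 1 (0.0819), 2 (0.136) or 3 (0.0669), with no filter on low counts (0.0614) and with thinned libraries (0.0706). Ugt8a, at 0.28 ± 0.11 and adjusted p = 0.136 in edgeR's full fit, passed without P28 replicate 2 (adjusted p = 0.0320). The P28 libraries lay wholly below P21 for Mbp, Mobp and Mag and above for Fa2h, where 29.4% of all genes did not overlap. Mbp, Mobp and Cnp differed by −0.28, −0.29 and −0.24 on the log2 scale and did not pass (edgeR adjusted p = 0.145, 0.0872 and 0.160).

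P28 replicate 2 held the lowest of the 3 P28 values for 9 of the 9 genes, and P21 replicate 1 held the lowest P21 value for 7 of the 9. The 9 values of a library are thus not independent of each other. The part of this shared shift in the P21 to P28 differences was not tested beyond the values without each library.

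From P14 to P28, 2 of the 9 were called, where 3.75% of all genes were, 1.89% upward and 1.86% downward. Mal was higher at P28 by 0.65 ± 0.12 on the log2 scale (edgeR adjusted p = 0.00439), a call that held in all 21 alternatives. Ugt8a was lower by a log2 difference of −0.43 ± 0.11 (edgeR adjusted p = 0.0378), which did not pass without P0 replicate 2 (adjusted p = 0.0515), P14 replicate 1 (0.0688) or 2 (0.126), P28 replicate 2 (0.185) or 3 (0.0842), or with the 6 libraries alone (0.1001). Opalin, at 0.52 ± 0.15 and adjusted p = 0.0739 in edgeR's full fit, passed without P28 replicate 2 (adjusted p = 0.0313).

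**Figure D3:**
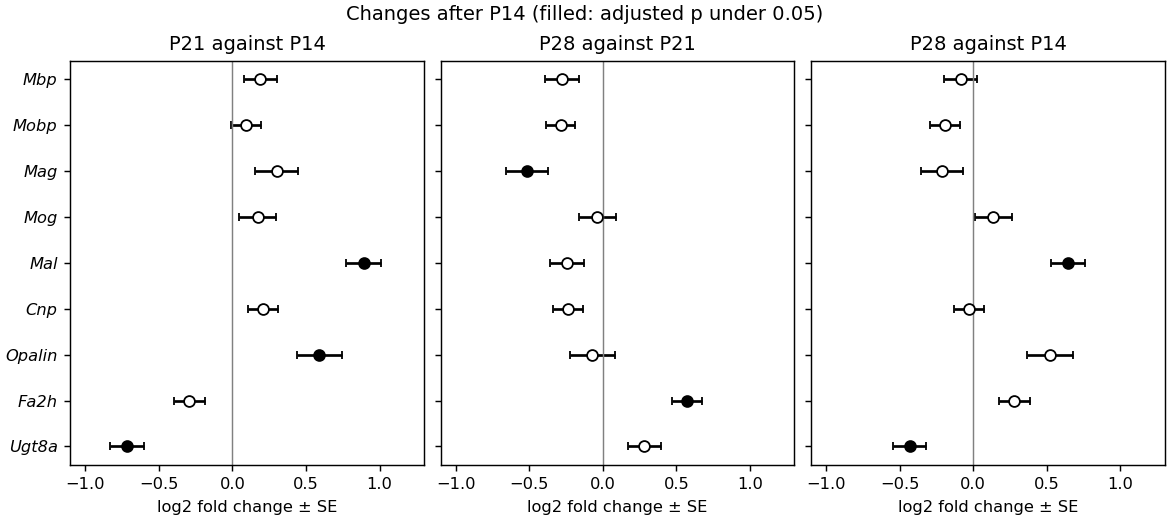
Log2 fold change ± SE of each gene between the 3 later ages (x axis; filled circles have an edgeR adjusted p under 0.05, n = 3 libraries per age). Mal and Ugt8a are filled in the left and right panels on opposite sides of 0, at 0.89 and −0.71 from P14 to P21, and Fa2h (0.57) and Mag (−0.51) are filled on opposite sides in the middle panel.

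Divided by the length of their annotated exons, the levels kept a stable order at the top and bottom. At P28 Mbp stood at 547 ± 61.7 CPM per kb (SD, n = 3) and Cnp at 347 ± 45.6, with no overlap between them. Mal (132.7 ± 19.9), Mog (120.9 ± 21.0) and Mag (89.3 ± 8.996 CPM per kb) followed, and each overlapped its neighbour in this order. Ugt8a (67.4 ± 11.4) and Mobp (66.3 ± 9.26) overlapped as well, and Fa2h (31.4 ± 3.44) and Opalin (12.7 ± 2.72 CPM per kb) each stood apart at the low end. Mbp, Cnp, Fa2h and Opalin held these ranks at P14 and P21 too, while Mal moved from rank 6 at P14 to rank 3 at P21 and Ugt8a from rank 5 to rank 7. At P14, however, Mog, Mag, Ugt8a and Mal, in this order, each overlapped the next. At P21 Mal overlapped Mag and Mag overlapped Mog, while Ugt8a overlapped neither neighbour.

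Other genes of the same pathway were counted from lists in the fit from P7 to P14. Of 20 other myelin proteins, 18 rose, 0 fell and 2 did not pass, with a median log2 change of 3.08. Tmem125, a membrane protein, went from no read at P7 to 382 reads at P14, and Ermn, a cytoskeletal protein of oligodendrocytes, rose by 6.38 ± 0.25 on the log2 scale (edgeR adjusted p = 2.23e-13). The tetraspanin Cd9 (0.16 ± 0.11, adjusted p = 0.261) and Pmp22, a protein best known from peripheral myelin (0.01 ± 0.11, adjusted p = 0.969), were the 2 that did not pass in edgeR's test.

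The enzymes that surround Fa2h and Ugt8a in sphingolipid metabolism were divided. Of 20, 10 rose, 4 fell and 6 did not pass, with a median log2 change of 0.48. Degs2, which desaturates or hydroxylates sphingoid bases, rose by 2.25 ± 0.35 and Elovl7, a fatty acid elongase, by 2.22 ± 0.32 on the log2 scale (edgeR adjusted p = 3.06e-05 and 5.40e-05). The ceramide synthase Cers5 fell by 0.52 ± 0.10 and Sptssa, a small subunit of serine palmitoyltransferase, fell by 0.58 ± 0.12 on the log2 scale (edgeR adjusted p = 0.000309 and 0.000698).

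Among 10 transcription factors of the oligodendrocyte lineage, 7 rose, 0 fell and 3 did not pass. Nkx6-2, a homeodomain factor, went from 1 read at P7 to 555 at P14, and Myrf, which drives myelin gene expression, rose by 3.91 ± 0.21 on the log2 scale (edgeR adjusted p = 2.08e-11). Sox2 (−0.15 ± 0.14, adjusted p = 0.445) and Zfp488 (−0.46 ± 0.38, adjusted p = 0.367) did not pass in edgeR's test. Of 10 genes of oligodendrocyte precursors and early differentiating cells, 5 rose, 3 fell and 2 did not pass: Enpp6 and Neu4 rose by 2.62 ± 0.19 and 2.55 ± 0.16, and Pdgfra and Vcan fell by 0.49 ± 0.10 and 0.85 ± 0.21 on the log2 scale (edgeR adjusted p = 1.37e-09, 2.78e-10, 0.000428 and 0.00301). In the same step 6 of 10 astrocyte markers rose and 2 fell, 7 of 10 microglia markers rose and 0 fell, and 3 of 10 endothelial markers rose and 2 fell, where 21.7% of all genes rose and 20.5% fell, and the part of changing cell mixture in the members' values was not tested.

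The genes outside the 9 whose log2 CPM over the 15 libraries was most like the mean standardised profile of the 9 were Trf, the iron carrier transferrin (Pearson r = 0.995), Hapln4 (0.995), Cnnm1 (0.994), Tmem88b (0.994), Tanc1 (0.993), Nkx6-2 (0.992), Ctss (0.992) and Ubl3 (0.992). A further 2 rows of the top 10, with r of 0.993 and 0.992, carry symbols stored as dates and are not named. The candidates were 12509 genes, and the 15 points fall in 2 separate clusters, P0 with P7 and the 3 later ages, so that r mainly measures the step between P7 and P14. By the same measure the members ranged from 0.962 for Fa2h to 0.998 for Mag, a value they themselves contribute to.

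In single neurons, which do not make myelin, reads of the 9 genes were found in 79 of 93 cells, and in all 35 subiculum cells. Summed over the 9 genes and pooled over cells, burst cells held 4091 CPM and regular cells 1796 CPM, against 724 CPM in CA1 pyramidal cells, 345 CPM in PV cells and 119.04 CPM in CCK cells. The 6 tissue libraries of P21 and P28, the ages nearest to the cells, held 6474 to 8989 CPM, here and below without TMM scaling. These sums carry no test, since each type counts as 1 sample. They depended on how cells were weighted: PV cells gave 730 CPM with each cell weighted equally and 782 CPM with cells thinned to 200000 reads, and CCK cells gave 78.9 CPM without the cell that held most of the reads.

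The labels of the cells were first compared with neuronal markers. Snap25, a SNARE protein of the presynaptic membrane, was read in all CCK, PV, burst and regular cells and in 22 of 25 CA1 pyramidal cells. Gad1, the GABA-synthesising enzyme, stood at 1933 CPM in CCK and 2863 CPM in PV cells against 8.75 to 33.5 CPM in the 3 pyramidal types, and Slc17a7, the vesicular glutamate transporter, at 379 to 1715 CPM in pyramidal types against 66.5 and 59.5 CPM. Pvalb was read in 8 of 14 PV cells and Cck in 19 of 19 CCK cells, with Cck also in 11 of 14 PV, 18 of 25 CA1 pyramidal, 21 of 21 burst and 13 of 14 regular cells. Pvalb was also read in 20 of 21 burst and 9 of 14 regular cells, so reads of either gene did not separate the types, although the pooled Pvalb level was 338 CPM in PV cells against 0.648 to 38.4 CPM in the other types.

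Most subiculum cells held several members, and the CA1 cells mostly Mbp. The median number of the 9 genes with a read was 7 in burst cells (range 2 to 9) and 5.5 in regular cells (2 to 9), and 6 of the 35 subiculum cells held all 9 while 10 held fewer than 5. It was 1 in each CA1 type, with at most 2 in a CCK, 4 in a PV and 3 in a CA1 pyramidal cell. Over the whole table, a CA1 cell had 276 to 9379 genes with a read and a subiculum cell 6149 to 12108. The part of this difference in the number of members read was not tested, and thinning evens out reads only. Mbp was read in 36 of 58 CA1 cells, and in 21 of these it was the only one of the 9. In the subiculum both Mbp and Mobp were read in 35 of 35 cells, and in 34 of 34 and 33 of 34 cells when thinned to 200000 reads. In CA1 Mobp was read in 6 of 58 cells (10.3%), and in 5 of 55 after thinning. These shares carry no interval, since no animal is named behind a cell.

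**Figure D4:**
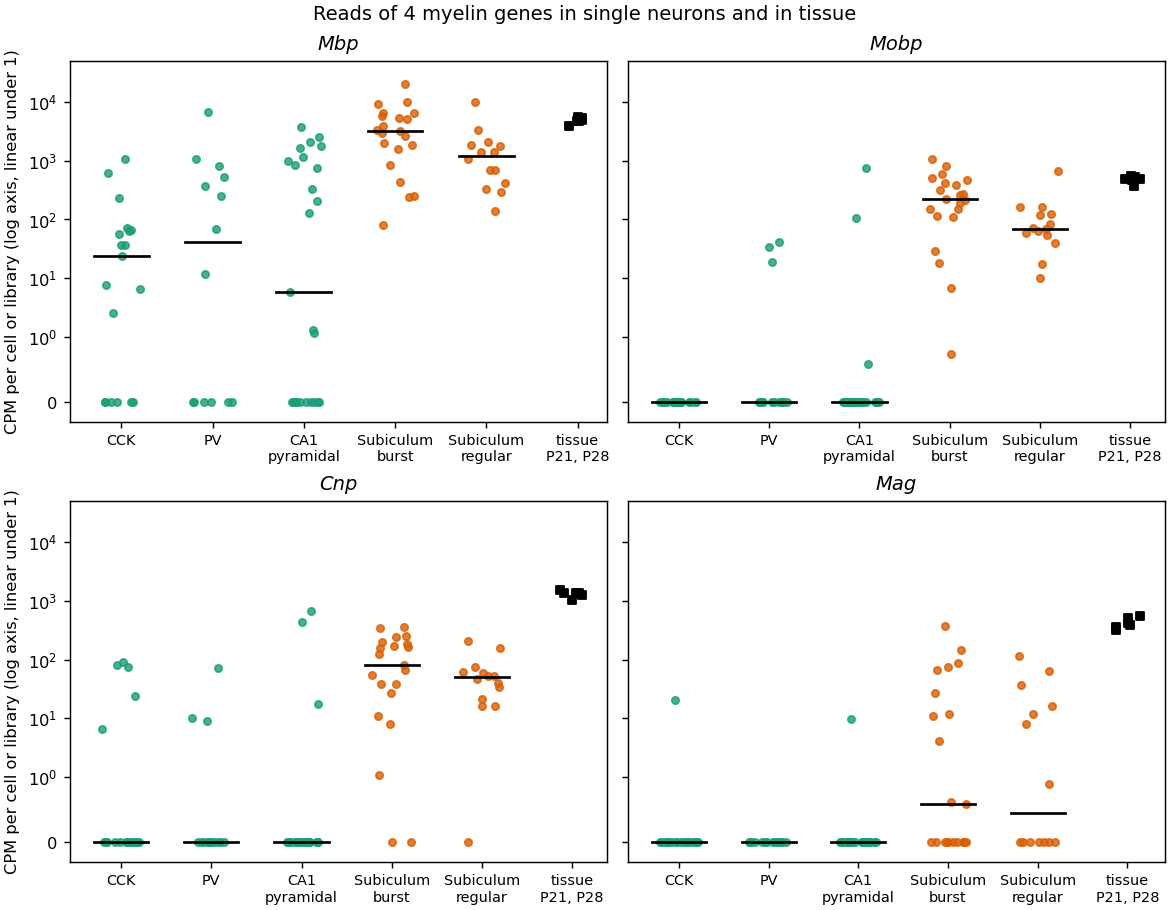
CPM of Mbp, Mobp, Cnp and Mag in each single cell by labelled type (dots; green for CA1, orange for subiculum, black line for the median) and in the 6 tissue libraries of P21 and P28 (squares), on an axis that is logarithmic above 1 and linear below. Every subiculum cell has Mbp and Mobp reads and some reach the tissue libraries, whereas Cnp stays below them in every cell and most CA1 cells lie at 0 for Mobp, Cnp and Mag.

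Mbp was by far the most read. It ranged from 79.1 to 20288 CPM in burst cells (median 3252) and from 141 to 9900 CPM in regular cells (median 1225). In 9 of the 35 subiculum cells it reached the lowest of the tissue libraries (3935 CPM), and in 7 it was above the highest (5495 CPM). In CA1 it ranged from 0 to 1070 CPM in CCK cells (median 23.9), from 0 to 6885 CPM in PV cells (median 40.9) and from 0 to 3751 CPM in CA1 pyramidal cells (median 5.73). A single CA1 cell, a PV cell, reached the tissue level.

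The members did not appear in neurons in the proportions of the tissue. Relative to the mean of the 6 tissue libraries, the pooled subiculum cells held 55.6% of the Mbp level, 46.8% of the Opalin level and 40.4% of the Mobp level. The other 6 genes stood at 4.32% (Ugt8a), 5.04% (Fa2h), 5.29% (Mag), 5.31% (Mog), 6.69% (Cnp) and 7.18% (Mal), with no value of the 9 between 7.18% and 40.4%. Of the 20 other myelin proteins, 13 lay in that interval, among them Ermn (14.16%), Gjb1 (28.29%), Pllp (34.3%) and Hapln2 (36.4%). The pooled CA1 cells held 5.76% of the Mbp level, 2.34% of the Cnp level and 1.23% of the Mobp level, and at most 0.327% for each of the others.

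**Figure D5:**
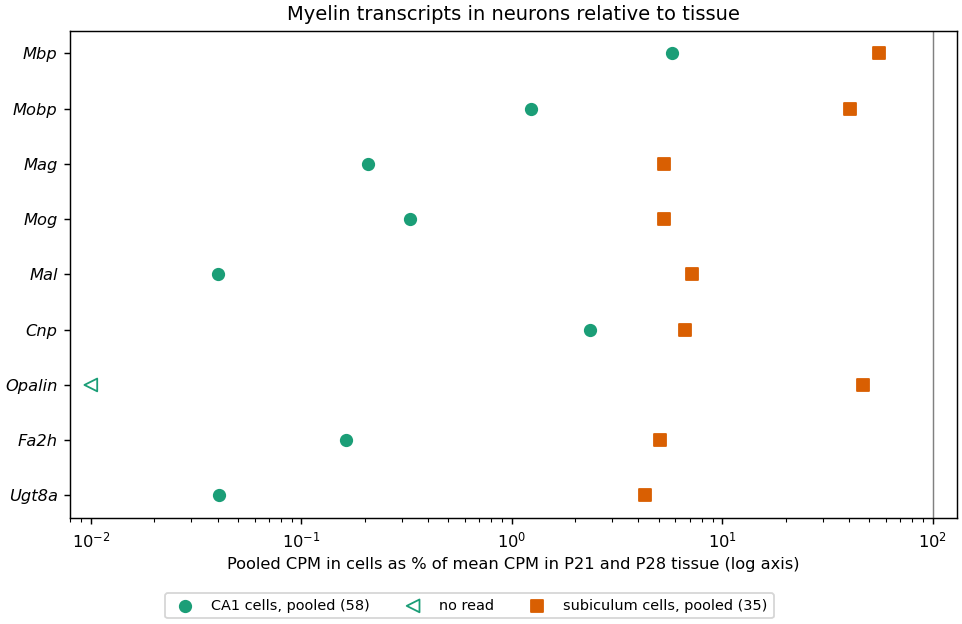
Pooled CPM of each gene in 35 subiculum cells (orange squares) and 58 CA1 cells (green circles) as a percentage of its mean CPM in the 6 tissue libraries of P21 and P28, on a log axis. Subiculum values fall in a high set (Mbp, Opalin and Mobp, 40.4% to 55.6%) and a low set (the other 6, 4.32% to 7.18%), and Opalin has no read in CA1 cells (open triangle).

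Within a library the same disproportion appeared as reads per 100 Mbp reads. Cnp gave 24.8 to 28.6 per 100 Mbp reads in the 6 tissue libraries and 3.23 in the pooled subiculum cells. All 33 subiculum cells with at least 100 Mbp reads were below the lowest tissue library, with a median of 2.99 and a highest value of 22.2. Mag was below it in 33 of 33 cells and Mog, Mal, Fa2h and Ugt8a in 32 of 33. Mobp, at 9.43 to 10.3 in tissue, gave 7.15 in the pooled cells and was below the lowest tissue library in 23 of 33. Opalin, at 0.649 to 0.937 in tissue, gave 0.632 in the pooled cells and was below in 21 of 33.

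Opalin was read in the subiculum alone. It was read in 11 of 21 burst and 9 of 14 regular cells, at 17.7 CPM (95% interval 15.97 to 19.5) and 16.6 CPM (14.7 to 18.7, both counting error only). In CA1 it had 0 reads in 58 cells, which by counting error alone allows up to 0.0234 CPM. By that limit, pooled subiculum cells held Opalin at least 737-fold above CA1 cells, between kits as well as regions. The limit takes no account of the fewer genes read in many CA1 cells, whose part in this fold was not tested.

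The remaining members were read in fewer subiculum cells. Cnp was read in 32 of 35 cells at a median of 55.5 CPM and a highest value of 361 CPM, against 1044 CPM in the lowest tissue library. Mal was read in 24, Mag and Ugt8a in 18 each, Mog in 15 and Fa2h in 12 of 35 cells. Some of these rested on few cells: a single cell held 50.2% of the Mag, 47.2% of the Ugt8a and 43.2% of the Mog reads. In CA1 the same held more strongly, as 1 CCK cell held 98.2% of the Mag reads and a CA1 pyramidal cell with 30025 gene reads held 80 of the 84 Mog reads and no read of any other member.

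Burst cells held more than regular cells for most members when pooled. The ratio of pooled CPM was 2.29 for Mbp (95% interval 2.26 to 2.32, counting error only), 2.26 for Mobp, 2.06 for Cnp and 2.02 for Mal, and between 3.08 and 3.65 for Fa2h, Mag, Ugt8a and Mog. For Opalin it was 1.07 (0.911 to 1.25). A single burst cell, with 375 CPM of Mag, 153 CPM of Mog and 182 CPM of Ugt8a, carried much of the highest ratios. Without the burst cell that held most reads of the gene, the ratio was 1.36 for Mag, 1.60 for Ugt8a, 1.84 for Mog, 2.15 for Fa2h and between 1.74 and 2.13 for Mbp, Mobp, Mal and Cnp, and for Opalin it was 0.857. Without the regular cell that held most reads, it was between 2.39 and 8.10 for the other 8 genes and 1.45 for Opalin. The median cell held 0.590 CPM of Mag among burst and 0.446 CPM among regular cells, and no Fa2h in either type. The cells of both types overlapped widely, at 96.8 to 21961 CPM in burst and 158 to 11079 CPM in regular cells for the sum of the 9, and the difference between types was not tested because no animal is named.

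Across the 35 subiculum cells, Mbp and Mobp levels ran together (Spearman rho = 0.931), more closely than Mbp with Mal (0.710), Cnp (0.706), Mag (0.670), Mog (0.648), Opalin (0.581), Fa2h (0.559) or Ugt8a (0.491). Mbp had a rho of −0.159 with the number of gene reads of a cell. These are descriptions over cells that share a kit, a region and possibly animals.

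Markers of other cells were also read in these neurons, and their part in the members' values was not tested. The summed CPM of 10 oligodendrocyte transcription factors stood at 52.0% of the tissue level in burst and 35.01% in regular cells, with all 10 read, and at 4.24% to 5.42% in the CA1 types, where 5 or 6 of 10 had no read. Sox8 gave the largest part, at 103.06 CPM or 116.2% of the tissue level in the pooled subiculum cells. Olig1 came next by CPM, at 66.3 CPM or 36.2% of the tissue level. Tcf7l2 stood at 78.9%, Nkx2-2 at 35.7%, Zfp488 at 25.2%, Sox2 at 23.2% and Nkx6-2 at 22.2%. Sox10 stood at 18.8%, Myrf at 13.3% and Olig2 at 5.13%. The 20 other myelin proteins summed to 19.2% of the tissue level in burst and 10.9% in regular cells, within the 10.5% to 22.6% of the CA1 types, and so were not higher in both subiculum types. That list holds Omg, which neurons also express and which stood at 152% of tissue in subiculum and 167% in CA1 cells. The 10 oligodendrocyte precursor markers gave 17.6% and 20.7% in subiculum types and 15.0% to 27.4% in CA1 types. The 10 astrocyte markers gave 8.90% and 7.27% in burst and regular cells (0 of 10 without a read) and 8.23% to 22.5% in CA1 types (2 to 5 of 10 without a read). The median cell held an astrocyte sum of 344 CPM in burst and 188 CPM in regular cells, and of 273, 69.4 and 199.8 CPM in CCK, PV and CA1 pyramidal cells, where single cells reached 24967 CPM (PV) and 20758 CPM (CA1 pyramidal). Within the subiculum, Mbp had a rho of 0.671 with the astrocyte sum and 0.475 with the microglia sum.

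Pooled over reads, microglia markers exceeded tissue in every type, at 134.1% and 141% of the tissue level in burst and regular cells and 251.3% to 861% in CA1 types. By the median cell they stood at 441, 413 and 578 CPM in burst, regular and CCK cells but at 155 CPM in PV and 322 CPM in CA1 pyramidal cells, below the 362 to 428 CPM of the tissue libraries, and single cells reached 7803 CPM (PV) and 19577 CPM (CA1 pyramidal). P2ry12, a microglial receptor, stood at 14.5 and 12.3 CPM in burst and regular cells and at 242.01 to 793 CPM in CA1 types. Endothelial markers gave 12.5% and 11.1% of the tissue level in the subiculum types and 2.38% to 10.7% in CA1 types. Choroid plexus markers gave 75.8% and 36.2% in the subiculum types and 0% to 3.15% in CA1 types. The part of cells with these markers in the members' values was not tested. Cells with a choroid plexus sum up to 4757 CPM were among the burst cells, and the tissue libraries of P21 and P28 themselves ranged from 37.4 to 1010 CPM. Peripheral myelin markers were near 0, at 1.87 CPM in tissue and at most 3.81 CPM in a cell type.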

How the data were processed

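Per the submitters' processing notes, FastQC, cutadapt, Trim Galore, STAR and HTSeq were used with the builds mm10 and hg19, in roles and versions not given in the sources used here. The authors deposited raw read counts for each gene symbol. Their 92 ERCC spike-in rows were left out of all totals, and no column was unused (0). Cell and tissue groups are those of the labels. The 9 genes and all gene lists were chosen with earlier results of these data known.

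Tissue was fitted with edgeR 4.0.16 in R 4.3.3: filterByExpr kept 14737 of 19485 genes with a read, TMM scaling and a robust quasi-likelihood fit used all 15 libraries with a term per age, and p-values were Benjamini-Hochberg adjusted. An SE is the log2 change over the square root of the F statistic. The procedure was tested on simulated data. The alternatives were DESeq2 1.42.0, RLE scaling, thinning to 2341677 reads, no filter, a replicate block, only the libraries compared, and each library left out. The replicate numbers did not pair the libraries: deviations of same-numbered libraries correlated at −0.254 to 0.130 over 30 pairs, 4 of them over 0.1.

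Counts of cells were pooled by type, with exact Poisson or binomial 95% intervals. Intervals and the limit of 3 reads cover counting error only, since reads are not independent molecules. Cells held 30025 to 11694081 gene reads, and 4 were too shallow for thinning to 200000. Coordinates and exon lengths are from GENCODE M21 (GRCm38, the mm10 build). Symbols of 7 listed genes were matched through older names. Most genes named outside the 9 are the 2 with the largest and 2 with the smallest change from P7 to P14 in each oligodendrocyte list. The rule also took the 10 most alike genes with at least 5 CPM at their highest age, and the leading markers of other cell types. Outside this rule, Gjb1, Pllp, Hapln2, Omg, Sox8, Sox10, Olig1, Olig2, Nkx2-2 and Tcf7l2 were named in cells after their values were seen. The neuronal markers were chosen after their values were seen. Cells were summed in Python 3.11.15 with pandas 2.3.3, numpy 2.4.6 and scipy 1.17.1, and plotted with matplotlib 3.10.9.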

Additional observations from a re-analysis of the deposited data

How the results depend on the processing

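Over 1132 repeats of the 9 genes' log2 changes, 24 no longer passed, 7 newly passed and 1101 kept their side of the threshold. None changed sign where the full fit or the repeat passed. Some changes that passed in neither did switch sign. Cnp from P14 to P28 ranged from −0.097 to 0.077 on the log2 scale, and Mog from P21 to P28 from −0.121 to 0.103. The number of the 9 genes called from P21 to P28 was 2 in the full fit, 1 with no filter and 0 with thinned libraries. From P14 to P28 it was 2, and 1 with the libraries compared alone. Among P14, P21 and P28 it was 5, and 3 with thinned libraries. Leaving out each library gave 5 to 6 from P0 to P7, 9 in every case from P7 to P14 and from P0 to P28, 2 to 4 from P14 to P21, 1 to 2 from P21 to P28, 1 to 2 from P14 to P28, and 3 to 5 among the later ages. The replicate block gave 5 from P0 to P7, losing Mal, and changed no other call of the 9. Over all genes, thinning to the smallest library cut the called genes from 3026 to 1713 (P14 to P21), 1154 to 385 (P21 to P28), 553 to 269 (P14 to P28) and 2778 to 1453 (later ages), and leaving out a library lowered the called share of genes to as little as 12.6%, 3.26%, 1.60% and 11.4%. The cause was not tested beyond the loss of reads and libraries.

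Summed CPM of the 9 genes in cells moved with the weighting. With equal weight per cell it was 136.8 in CCK, 730 in PV, 839 in CA1 pyramidal, 4952 in burst and 2063 in regular cells. Thinned to 200000 reads it was 125.5 in CCK, 782 in PV, 4985 in burst and 2067 in regular cells. Without the cell holding most reads it was 78.9 in CCK, 285 in PV, 614 in CA1 pyramidal, 3827 in burst and 1332 in regular cells. Every setting kept the subiculum types above the CA1 types. Depth limits Mobp, Opalin and Fa2h at P0 and P7, where an age held at most 3 reads of one of them or, for Mobp and Fa2h at P7, 6 and 64. Leaving out the burst cell with most reads of a gene, an alternative chosen after seeing the data, turned the burst to regular ratio of Opalin from 1.07 to 0.857 and kept the other 8 ratios above 1.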
